A study of Mus musculus with 93 samples.

Results

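Paraxial mesoderm flanks the neural tube and forms the somites, the segments from which vertebrae, skeletal muscle of the trunk and dermis arise. This account follows 8 transcription factors and cofactors of that tissue, chosen by name, among the 24514 gene symbols counted: Meox1, Meox2, Tcf15, Pax1, Pax3, Pax9, Uncx and Ripply2. The question was how much of a paraxial programme was carried by cells labelled through Tbx1-Cre, which were sorted as progenitors of the second heart field (SHF).

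All cells came from mice or embryonic stem cells (ESCs) with 3 alleles, Hcn4-GFP, Tbx1-Cre and the Ai9 reporter. GFP+ cells had Hcn4, a marker of the first heart field, switched on when they were sorted. RFP+ cells carried the permanent Ai9 mark of Tbx1-Cre, so they comprised cells with active Tbx1 and the descendants of such cells. The wells, each with 10 sorted cells, formed 4 groups: 5 GFP+ and 4 RFP+ wells from embryos, and 38 GFP+ and 46 RFP+ wells from ESC-derived precardiac spheroids at day 5.5. The embryo samples are titled E8.5, whereas the design text gives E7.75, and the dissected regions came with no finer description than embryonic heart. The ESCs were described as a line derived from blastocysts, and how many embryos or cultures the wells represent is not given in the sources used here. Replicate numbers (n) are therefore wells, and p-values measure the spread between wells.

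Segmentation proceeds from the presomitic mesoderm, where T-box factors and an oscillating Notch clock operate, to a boundary set by Mesp2 and the Ripply repressors. Each new somite becomes an epithelial ball under Tcf15, also called paraxis, while the homeobox factors Meox1 and Meox2 are needed for its patterning. The ventral somite turns into Pax1+ and Pax9+ sclerotome, which builds cartilage, and the dorsal somite stays Pax3+ as dermomyotome, the source of muscle. Uncx marks the posterior compartment of each somite. Several of these genes serve other tissues: Pax1 and Pax9 are expressed in pharyngeal pouch endoderm, and Pax3 in the dorsal neural tube and neural crest.

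Total counts were 712732 to 2525460 in embryo GFP+ wells, 1246546 to 1479957 in embryo RFP+ wells, 445071 to 5658882 in spheroid RFP+ wells and 6288 to 4371849 in spheroid GFP+ wells, where all but well C9 had at least 828193. Fewer genes were detected in embryo GFP+ wells, 6189 to 8302, than in embryo RFP+ wells, 10263 to 13052. In spheroids, RFP+ and GFP+ wells lay in different plate columns, and the effects of the 2 cannot be told apart. Within each population, embryo and spheroid wells also lay in different plate columns, so source and plate column cannot be told apart either. In 7 plate rows, libraries of RFP+ wells in columns 3 and 4 were near-identical (r of 0.976 to 0.994), with a chi-square per degree of freedom of 1.37 to 2.39 against 5.28 to 8.10 for the 3 next most similar pairs. They were kept as separate wells, but amplified libraries differ by more than counting noise even when they share their cDNA, so it is not shown that these pairs hold different cells, and n = 46 may stand for 39. With the pairs summed, the same 4 factors were called between spheroid populations. Expression is given as counts per 1000000 reads (CPM), scaled by the TMM method over all 93 libraries. The reporter genes were higher on average in the population named for them. Hcn4 had reads in all 5 embryo GFP+ wells (mean 14.9 CPM) and 37 of the 38 spheroid GFP+ wells (7.36 CPM), and also in 1 of 4 embryo RFP+ wells (0.358 CPM) and 18 of 46 spheroid RFP+ wells (0.445 CPM). Tbx1 had reads in 3 of the 4 embryo RFP+ wells, 41 of the 46 spheroid RFP+ wells, 2 spheroid GFP+ wells and no embryo GFP+ well.

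Paraxial factors were read in all RFP+ wells of both sources. No read of any of the 8 factors was counted in the 5 embryo GFP+ wells, whereas each embryo RFP+ well held 4 to 6 of them (median 6). Each spheroid RFP+ well held 4 to 7 (median 6) and each spheroid GFP+ well 0 to 6 (median 3). The summed level of the 8 factors was 53.2 to 124 CPM in embryo RFP+ wells (median 56.4), 69.4 to 207 CPM in spheroid RFP+ wells (median 111), and 0 to 40.4 CPM in spheroid GFP+ wells (median 8.82). The spheroid populations did not overlap in this sum. For comparison, 26.2% of the 15111 genes with a read in embryos had none in any GFP+ well, so the lack of reads of the 8 factors there was not rare among genes. Reads in at least 3 RFP+ wells together with none in GFP+ wells were found for 6 of the 8 factors and for 8.8% of those genes.

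**Figure D1:**
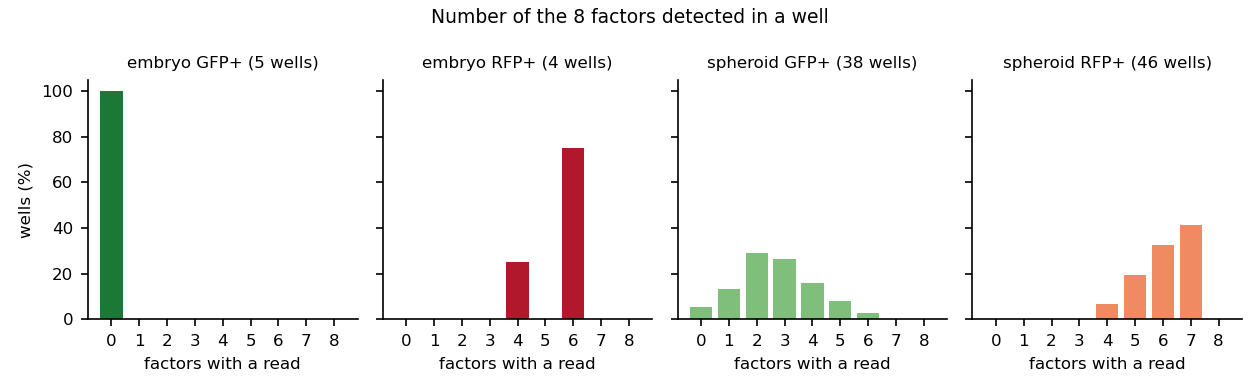
Number of the 8 factors with at least 1 read in a well (x axis), as the percentage of the wells of each group (y axis). Embryo GFP+ wells all sit at 0, spheroid GFP+ wells spread from 0 to 6, and both RFP+ groups lie between 4 and 7.

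Tests for single genes were run with edgeR between the populations in each source and between the sources in each population, with Benjamini-Hochberg adjustment over all genes tested and calls at an adjusted p under 0.1. In embryos, 1 of the 8 factors had enough reads to be tested and it was called higher in RFP+ cells, where 6.21% of the 8503 genes tested were called in that direction. In spheroids, 4 of the 8 were tested and all 4 were higher in RFP+ cells, where 37.8% of the 9940 genes tested were called in that direction. Each of these factors passed the read filter on its RFP+ wells and would not have passed on its GFP+ wells, in embryos and in spheroids, so that filter favoured calls in this direction and the counts of called factors are not evidence of it. The values of each factor follow. DESeq2, which also tested genes of lower counts, called 3 factors higher in embryo RFP+ cells, Meox1, Pax3 and Pax9 (12.3% of genes in that direction), and 7 in spheroid RFP+ cells, all but Pax1 (26.7% of genes). The populations differed so widely in spheroids that 77.9% of genes tested were called in either direction. The factors under the read filter were compared by permutation tests on log2 CPM, in which the smallest two-sided p that 5 against 4 wells allow is 0.0159. In embryos every GFP+ well was at 0, so this p depends only on how many RFP+ wells had a read. It restates detection and says nothing more about level.

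**Figure D2:**
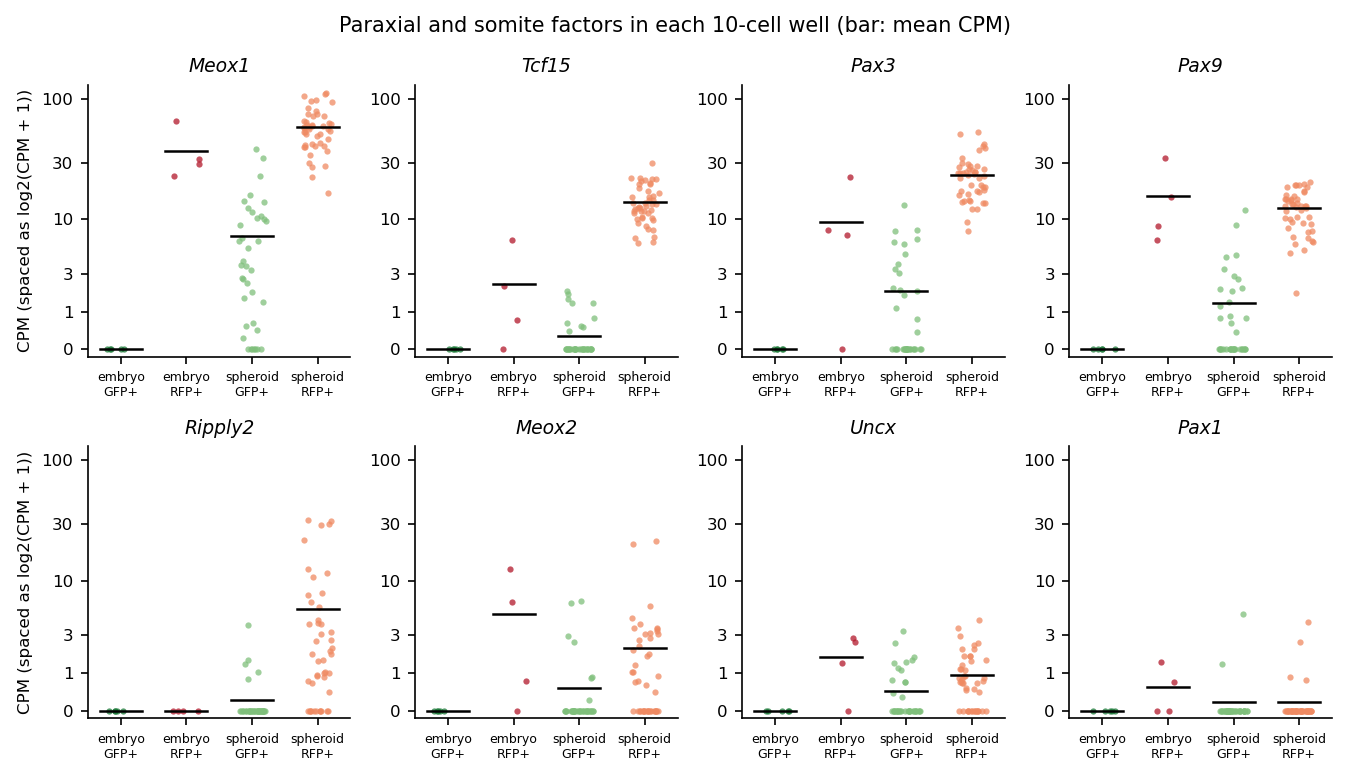
CPM of each factor (y axis, spaced as log2(CPM + 1)) in every well of the 4 groups (x axis), with a bar at the group mean. Meox1, Tcf15, Pax3 and Pax9 form compact clouds in spheroid RFP+ wells, the embryo GFP+ wells lie at 0 throughout, and Ripply2 is at 0 in embryo RFP+ wells.

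Meox1 (chr11:101877510-101894374, minus strand, GRCm38), the homeobox gene that marks somites as they form, was the most abundant of the 8 in both RFP+ groups. Its levels in embryo RFP+ wells were 32.1, 23.2, 65.9 and 29.4 CPM in wells F12, G11, G12 and H11, against 0 in all 5 GFP+ wells. The groups did not overlap, as was true of 11.8% of the genes with a read in embryos in that direction. With 3 counts per GFP+ library as the floor, a mean of 2.57 CPM, the RFP+ mean was at least 14.6-fold higher, and at least 11-fold without well G12. This floor covers counting error only. Embryo GFP+ wells were also less alike, with r between wells of 0.672 to 0.764 against 0.904 to 0.956 in embryo RFP+ wells. The edgeR log2 fold change was 8.69 ± 1.78 (SE; adjusted p = 0.0157), a fitted value that depends on the prior count, and the exact permutation p was 0.0159. The median log2 fold change over all genes tested was 0.09, or -0.04 with the size factors of DESeq2.

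In spheroids, Meox1 ran from 16.7 to 111 CPM in RFP+ wells (median 57.2) and from 0 to 39.2 CPM in GFP+ wells (median 3.67). Means were 58.8 ± 22.5 CPM (SD, n = 46) and 7.05 ± 8.98 CPM (SD, n = 38). The RFP+ mean was 8.35 times the GFP+ mean, and 39 of 46 RFP+ wells exceeded every GFP+ well. The log2 fold change was 2.96 ± 0.24 (SE; edgeR, adjusted p = 3.2e-20). Meox1 was thus the only factor read in most spheroid GFP+ wells, 31 of 38. Between GFP+ cells of the 2 sources it was called higher in spheroids, by at least 2.74-fold against the floor (edgeR, adjusted p = 0.00088), where 48.3% of the 11822 genes tested were called in that direction. The median log2 difference of all genes, embryo minus spheroid, was -0.67 there and -0.22 with DESeq2 size factors. With no read in embryo GFP+ wells, Meox1 passed the read filter of this comparison on spheroid wells alone, which favoured the call. The bound uses the spheroid GFP+ mean, whereas the median of 3.67 CPM lay closer to the embryo floor of 2.57 CPM.

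Meox2 (chr12:37108540-37179534, plus strand), the paralogue that acts with Meox1 in somite patterning, was sparse. Wells F12, G11, G12 and H11 held 0.73, 12.6, 0 and 6.45 CPM, from 1, 18, 0 and 9 reads. The exact permutation p against the GFP+ wells, all at 0, was 0.0952. In spheroid RFP+ wells Meox2 ran from 0 to 21.6 CPM (median 0.714, mean 2.18 ± 4.38, SD, n = 46), and in GFP+ wells from 0 to 6.49 CPM (median 0, mean 0.529 ± 1.53, SD, n = 38). The permutation p was 0.00086. In RFP+ cells the distribution was uneven: wells H6 and E2 held 21.6 and 20.6 CPM while the next, E5, held 5.90 CPM. These wells were picked out after their values were seen, and they ranked 2 and 1 in Meox1 among the 46, at 109 and 111 CPM. Over the 39 libraries left after summing near-identical wells, however, Spearman's rho between Meox1 and Meox2 was 0.10.

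Tcf15 (chr2:152143561-152149097, plus strand), required for the epithelial somite, separated the spheroid populations most sharply. Every one of the 46 RFP+ wells lay above every GFP+ well, with 6.08 to 29.6 CPM (median 12.9) against 0 to 1.93 CPM (median 0). Such a separation in this direction was seen for 0.573% of the genes with a read in spheroids. Means were 14.1 ± 5.28 CPM (SD, n = 46) and 0.282 ± 0.554 CPM (SD, n = 38), a ratio of 50.01, and the log2 fold change was 5.44 ± 0.27 (SE; edgeR, adjusted p = 9.7e-35). In embryos Tcf15 was barely present: wells F12, G11, G12 and H11 gave 2.19, 0.70, 0 and 6.45 CPM, from 3, 1, 0 and 9 reads. The mean of 2.33 CPM lay under the floor of 3 counts in the GFP+ wells, the groups overlapped at 0, and the exact permutation p was 0.0952.

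Ripply2 (chr9:87015537-87019917, plus strand), a corepressor that ends T-box activity at the somite boundary, was the factor whose 2 RFP+ groups parted most clearly in detection. No read was counted in the 4 embryo RFP+ wells or the 5 embryo GFP+ wells. In spheroid RFP+ wells 35 of 46 had reads, from 0 to 32.4 CPM (median 1.84, mean 5.55 ± 9.03, SD, n = 46), and in spheroid GFP+ wells 5 of 38, from 0 to 3.85 CPM (median 0, mean 0.226 ± 0.712, SD, n = 38). The permutation p between the spheroid populations was 2e-05, the smallest the resampling can give. A few wells carried most of the signal: 5 wells over 20 CPM held 62.5% of the Ripply2 reads of the group, and 4 of these 5 were the near-identical pairs A3 with A4 and H3 with H4. With such pairs summed, the mean was 4.76 ± 7.72 CPM (SD, n = 39). The 250 bases upstream of the RefSeq start site of Ripply2 are shown because this gene had reads in 35 of 46 spheroid RFP+ wells and in no embryo RFP+ well. They lie at chr9:87015287-87015536 (GRCm38.p6, plus strand) and outside annotated exons, and capitals mark 2 E-boxes (CANNTG), the motif bound by bHLH factors such as Mesp2 and Tcf15.
Ripply2 upstream: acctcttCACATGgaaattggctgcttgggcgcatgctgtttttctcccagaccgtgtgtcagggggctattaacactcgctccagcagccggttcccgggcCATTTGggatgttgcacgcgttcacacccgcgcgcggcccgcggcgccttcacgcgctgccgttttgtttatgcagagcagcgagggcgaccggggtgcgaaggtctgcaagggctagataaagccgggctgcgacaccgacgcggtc

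Pax3 (chr1:78101267-78197134, minus strand), the paired-box factor of dermomyotome, was read in all spheroid RFP+ wells, at 7.84 to 53.8 CPM (median 23.5). Spheroid GFP+ wells held 0 to 13.2 CPM (median 0), and 42 of 46 RFP+ wells exceeded all of them. Means were 23.8 ± 10.2 CPM (SD, n = 46) and 1.91 ± 3.08 CPM (SD, n = 38), a ratio of 12.4, with a log2 fold change of 3.77 ± 0.31 (SE; edgeR, adjusted p = 4.2e-20). Embryo RFP+ wells were uneven, with 8.01 CPM in F12, none in G11, 22.8 CPM in G12 and 7.16 CPM in H11. Because G11 had no read, the embryo populations overlapped at 0, and the exact permutation p was 0.0952. The mean was at least 3.69-fold above the GFP+ floor, and at least 1.97-fold without G12.

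Pax9 (chr12:56691767-56712822, plus strand), a regulator of sclerotome and of pharyngeal pouches, was the other factor without overlap in embryos. RFP+ wells F12, G11, G12 and H11 held 8.74, 15.5, 32.9 and 6.45 CPM, all above the 5 GFP+ wells at 0 (exact permutation p = 0.0159). The difference was at least 6.18-fold against the floor, and at least 3.97-fold without G12. It had too few reads for the main edgeR fit in embryos. In spheroids, RFP+ wells ran from 1.83 to 20.9 CPM (median 13) and GFP+ wells from 0 to 12.0 CPM (median 0). Means were 12.4 ± 4.68 CPM (SD, n = 46) and 1.34 ± 2.54 CPM (SD, n = 38), a ratio of 9.28, and the log2 fold change was 3.16 ± 0.30 (SE; edgeR, adjusted p = 7.2e-17). An exon of Slc25a21 overlaps Pax9 on the opposite strand and no source gives the strand setting of the counting. Slc25a21 averaged 1.73 CPM in embryo RFP+ wells and 0.637 CPM in spheroid RFP+ wells, under the Pax9 level in both.

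The 250 bases upstream of the RefSeq start site of Pax9 (chr12:56695221-56695470, GRCm38.p6, plus strand, inside the GENCODE gene span and outside annotated exons) are shown beside those of Ripply2, because Pax9 was the abundant factor whose level did not part the RFP+ groups. Capitals mark an E-box and a T-box motif (AGGTGT).
Pax9 upstream: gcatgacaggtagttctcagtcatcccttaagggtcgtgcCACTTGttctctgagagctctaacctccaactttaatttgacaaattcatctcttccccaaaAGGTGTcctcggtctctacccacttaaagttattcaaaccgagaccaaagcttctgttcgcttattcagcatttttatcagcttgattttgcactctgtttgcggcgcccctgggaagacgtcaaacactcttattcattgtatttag
RefSeq promoter windows, 250 bases before to 50 bases after the start site, matched 5 of the 8 factors, and Meox1, Tcf15 and Pax3 had none in the table. On either strand of these windows, the T-box motif occurred in Pax9 and not in Pax1, Uncx, Ripply2 or Meox2, and 13.7% of 32851 windows held it. An E-box occurred in Ripply2, Meox2, Pax9 and Uncx and in 72.3% of all windows. Uncx held the homeodomain core TAATTA, found in 5.29% of windows. None of the 5 held the RBPJ motif GTGGGAA (6.38% of windows) or the Tcf/Lef motif ATCAAAG (3.73%).

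Pax1 (chr2:147361925-147393295, plus strand), which acts with Pax9 in sclerotome and pouch, was scarcely detected. Wells F12, G11, G12 and H11 held 1.46, 0.70, 0 and 0 CPM, from 2, 1, 0 and 0 reads (exact permutation p = 0.333). In spheroids 4 of 46 RFP+ wells and 2 of 38 GFP+ wells had reads, up to 4.14 and 4.92 CPM, and the means of 0.181 ± 0.722 CPM (SD, n = 46) and 0.165 ± 0.823 CPM (SD, n = 38) gave a permutation p of 0.813. Pax1 shares exonic sequence with the antisense gene AI646519, so these few reads remain uncertain in origin. A difference between populations was not detectable at this depth.

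Uncx (chr5:139543494-139548179, plus strand), needed for the posterior compartment of the somite, had 0, 2.81, 2.53 and 1.43 CPM in wells F12, G11, G12 and H11, from 0, 4, 3 and 2 reads (exact permutation p = 0.0952). Spheroid RFP+ wells held 0 to 4.32 CPM (median 0.704, mean 0.939 ± 1.02, SD, n = 46) and GFP+ wells 0 to 3.36 CPM (median 0, mean 0.450 ± 0.799, SD, n = 38). The permutation p was 0.00692. The 2 ranges overlapped almost entirely, as only 2 RFP+ wells exceeded every GFP+ well.

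The permutation p-values of single factors were not adjusted. In bulk wells of 10 cells, a lower share of expressing cells and less RNA per cell cannot be told apart.

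The share of wells with a read gave the same division between widespread and sporadic factors. In spheroid RFP+ cells, Meox1, Tcf15, Pax3 and Pax9 were read in 46 of 46 wells each (100%, exact 95% Clopper-Pearson interval 92.3 to 100%). Ripply2 followed at 76.1% (61.2 to 87.4%), Uncx at 67.4% (52.0 to 80.5%), Meox2 at 56.5% (41.1 to 71.1%) and Pax1 at 8.70% (2.42 to 20.8%). In spheroid GFP+ cells, the shares were 81.6% for Meox1 (65.7 to 92.3%), 44.7% for Pax3 and for Pax9 (28.6 to 61.7%), and 26.3% for Tcf15 (13.4 to 43.1%). Those for Uncx, Meox2, Ripply2 and Pax1 were 34.2%, 18.4%, 13.2% and 5.26%. With 4 wells, the embryo shares carried little precision: Meox1 and Pax9 were read in 4 of 4 (39.8 to 100%), Meox2, Tcf15, Pax3 and Uncx in 3 of 4 (19.4 to 99.4%), Pax1 in 2 of 4 (6.76 to 93.2%) and Ripply2 in 0 of 4 (0 to 60.2%). The intervals cover counting error only.

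**Figure D3:**
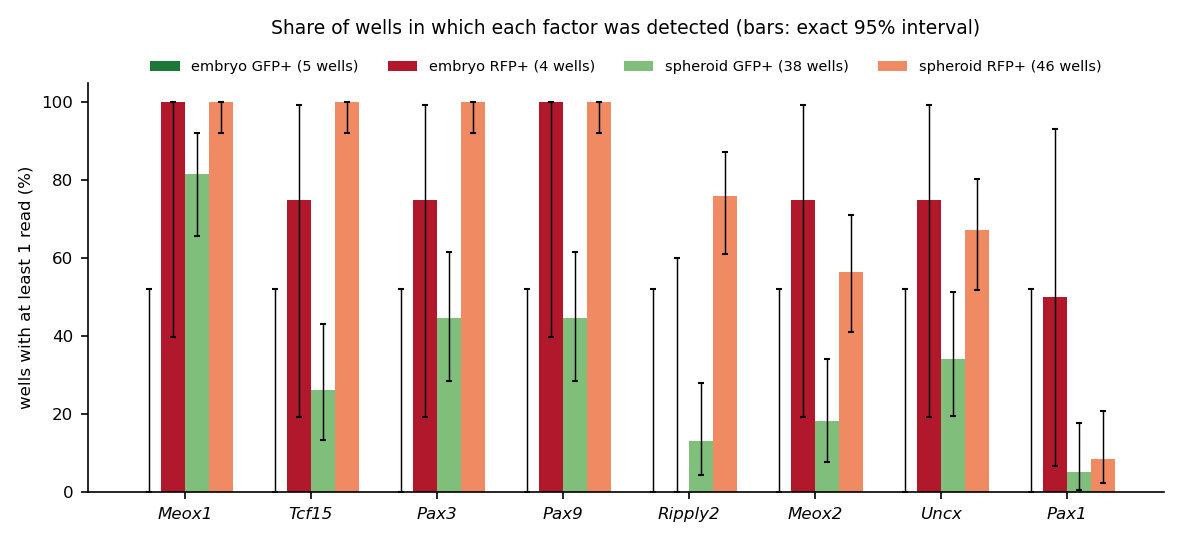
Percentage of wells with at least 1 read (y axis) for each factor (x axis) in the 4 groups, with exact 95% intervals over wells. Meox1, Tcf15, Pax3 and Pax9 reach 100% in spheroid RFP+ wells, and Ripply2 is at 0% in embryo RFP+ wells and 76.1% in spheroid RFP+ wells.

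Depth shifted the sporadic factors more than the widespread ones. When every well was thinned to 400000 reads, the expected shares in spheroid RFP+ wells stayed at 98.1 to 100% for Meox1, Tcf15, Pax3 and Pax9. They fell to 53.6% for Ripply2, 36.1% for Meox2, 28.9% for Uncx and 4.8% for Pax1. In thinned spheroid GFP+ wells, Meox1 was at 65.7%, Pax3 at 33.1%, Pax9 at 26.7% and Tcf15 at 10.2%, without well C9. The order of the populations was the same for all 8 factors after thinning.

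Reads in every RFP+ well together with reads in fewer than 50% of GFP+ wells were rare, at 21 genes or 0.0962% of the 21827 with a read in spheroids, and 3 of the 8 factors, Tcf15, Pax3 and Pax9, were among them. Foxc2, a forkhead gene of early somites, and Six2, a homeobox gene of head and pharyngeal mesoderm, were in the same set. All 46 spheroid RFP+ wells held reads of Meox1, Tcf15, Pax3 and Pax9 together, against 2 of 38 spheroid GFP+ wells and 2 of 4 embryo RFP+ wells. Whether these 4 transcripts shared a cell cannot be read from pools of 10.

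Compared between sources, RFP+ cells carried less Tcf15, Pax3 and Ripply2 in embryos than in spheroids, while Pax9 did not differ detectably. Of the 5 factors tested, 4 were called lower in embryo RFP+ cells, as were 22.5% of the 11147 genes tested. All 5 passed the read filter on spheroid wells and only Meox1 would have passed on embryo wells, so nothing is read from that count. Tcf15 gave a log2 difference, embryo minus spheroid, of -2.51 ± 0.46 (SE; edgeR, adjusted p = 1.5e-05), or -3.71 without well H11, and 3 of the 4 embryo wells lay below all 46 spheroid wells. Pax3 gave -1.32 ± 0.41 (SE; adjusted p = 0.0089), or -2.20 without well G12, with all 4 embryo wells below the spheroid median of 23.5 CPM. The mean of Ripply2 was at least 2.47-fold higher in spheroids against the floor of 3 counts in the embryo wells (adjusted p = 0.0179). This bound rests on the few wells of high Ripply2, as the spheroid median of 1.84 CPM lay under the embryo floor of 2.24 CPM and some spheroid wells were also at 0.

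Meox1 was 1.56 times higher on average in spheroid than in embryo RFP+ cells, with a log2 difference, embryo minus spheroid, of -0.64 ± 0.30 (SE; adjusted p = 0.088). This call was lost in 7 of 10 alternative analyses, where adjusted p reached 0.302, and all 4 embryo wells fell inside the spheroid range. Pax9 gave 0.36 ± 0.33 (SE; adjusted p = 0.42), with 15.9 ± 12.0 CPM (SD, n = 4) in embryos against 12.4 CPM in spheroids, and without well G12 the difference turned to -0.28. Meox2, Uncx and Pax1 were under the filter and their mean CPM was higher in embryos, with exact permutation p-values of 0.221, 0.208 and 0.221.

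For Meox1, Tcf15 and Pax3, embryo RFP+ levels stood between the spheroid groups. Mean levels in the order embryo GFP+, spheroid GFP+, embryo RFP+ and spheroid RFP+ were 0, 7.05, 37.6 and 58.8 CPM for Meox1, 0, 0.282, 2.33 and 14.1 CPM for Tcf15, and 0, 1.91, 9.49 and 23.8 CPM for Pax3. The middle pair differ in both source and population and were not tested, and their wells overlapped for all 3 genes. For Meox2, Pax1, Pax9 and Uncx the embryo RFP+ mean was the highest of the 4 groups, yet none of these differed from spheroid RFP+ wells beyond the spread. The difference between the embryo and spheroid fold changes of Meox1 did not pass adjustment over the 8182 genes tested in both sources (adjusted p = 0.199), and its size is not given because the embryo fold change was fitted over GFP+ wells at 0.

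Per length of transcript, Meox1 led both RFP+ groups, with 16.9 CPM per kb of exon in embryos and 26.4 in spheroids. The next in spheroids were Tcf15 at 14.4, Ripply2 at 7.55, Pax3 at 3.84 and Pax9 at 2.45 CPM per kb. In embryos Pax9 came next at 3.14, then Tcf15 at 2.38, Meox2 at 2.10 and Pax3 at 1.53 CPM per kb. Uncx and Pax1 were lowest in spheroids, at 0.299 and 0.040 CPM per kb.

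The other genes of paraxial development, 34 in 4 lists, were counted in the same comparisons. In spheroids 16 of the 34 were tested and 14 were called, each higher in RFP+ cells (37.8% of all genes tested). In embryos 9 were tested and 2 were called, Foxc2 among them, both higher in RFP+ cells (6.21% of all). Between RFP+ groups, 22 were tested and 17 were lower in embryos (22.5% of all) and 1 higher (20.1% of all). The lists were set with results of these data known. Every one of these genes tested in spheroids passed the read filter on RFP+ wells, and most would not have passed on GFP+ wells. In embryos most passed on RFP+ wells and few on GFP+ wells. Between RFP+ groups every gene passed on spheroid wells, and most would not have passed on embryo wells. The filter thus favoured calls in these directions, and nothing is read from these counts.

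Presomitic genes were sparse in embryo RFP+ cells. Of the 11 in the list, 9 were tested between RFP+ sources and called lower in embryos, but all 9 passed the read filter on spheroid wells and none would have passed on embryo wells, so their levels are given in place of that count. Brachyury, T, the T-box factor of the primitive streak and tail bud, ran from 12.3 to 116 CPM in spheroid RFP+ wells (median 55.7) and had reads in 1 of 4 embryo RFP+ wells. Tbx6, which commits cells to paraxial fate, was read in 46 of 46 spheroid RFP+ wells (median 10.4 CPM) and Msgn1, its partner in presomitic mesoderm, in 34 of 46 (median 2.46 CPM). Tbx6, Msgn1 and Wnt3a had no read in any embryo RFP+ well. Rspo3, a Wnt agonist, averaged 66.9 CPM in spheroid and 1.95 CPM in embryo RFP+ cells. Against spheroid GFP+ cells, 5 of the 6 presomitic genes tested were called higher in RFP+ cells (37.8% of all genes tested). All 6 passed the read filter on RFP+ wells alone. T was higher by a log2 of 1.68 ± 0.24 (SE, edgeR, adjusted p = 6e-10) and Tbx6 by 2.61 ± 0.27 (SE, edgeR, adjusted p = 4.3e-15).

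Genes of the segment boundary and early somite lay closer between sources. Foxc2, which with Foxc1 is required for somite formation, averaged 38.4 CPM in spheroid and 19.7 CPM in embryo RFP+ cells and was higher than in GFP+ cells in both sources, by a log2 of 5.56 ± 0.27 in spheroids (SE; adjusted p = 1.3e-34) and a fitted 7.76 ± 1.45 in embryos (SE; adjusted p = 0.0122), where no GFP+ well had a read. Foxc2 passed the embryo read filter on RFP+ wells alone. Of 4 boundary genes tested in embryos, 1, Foxc2, was called higher in RFP+ cells (6.21% of all genes tested). Epha4, Aldh1a2 and Tbx18 were not called there, at log2 fold changes of 0.01, 0.71 and -2.26. The boundary sum was 134 to 186 CPM in embryo RFP+ wells and 0 to 334 CPM in embryo GFP+ wells. The 5 boundary genes tested in spheroids were called higher in RFP+ cells (37.8% of all genes tested), and 4 of these would not have passed the read filter on GFP+ wells. Mesp1, Mesp2 and Ripply1 had no read in embryo RFP+ wells, whereas Mesp1 and Mesp2 had reads in 38 and 37 of 46 spheroid RFP+ wells. Mesp1 is not particular to paraxial cells, as the study describes it as a mark of nascent mesoderm that contributes to both heart fields. Mesp2 had a higher mean in spheroid GFP+ cells, with reads in 34 of 38 wells and 4.82 CPM against 2.81 CPM in RFP+ cells. It was under the read filter of edgeR, so the main fit did not test this difference. DESeq2 tested 7 of the 8 boundary genes between spheroid populations and called all 7, where 65.8% of all genes were called in either direction. Epha4, a receptor at the boundary, averaged 88.9 and 53.3 CPM in spheroid and embryo RFP+ cells. Between RFP+ groups, 4 of 6 boundary genes tested were lower in embryos (22.5% of all genes tested). All 6 passed the read filter on spheroid wells and 3 would have passed on embryo wells.

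**Figure D4:**
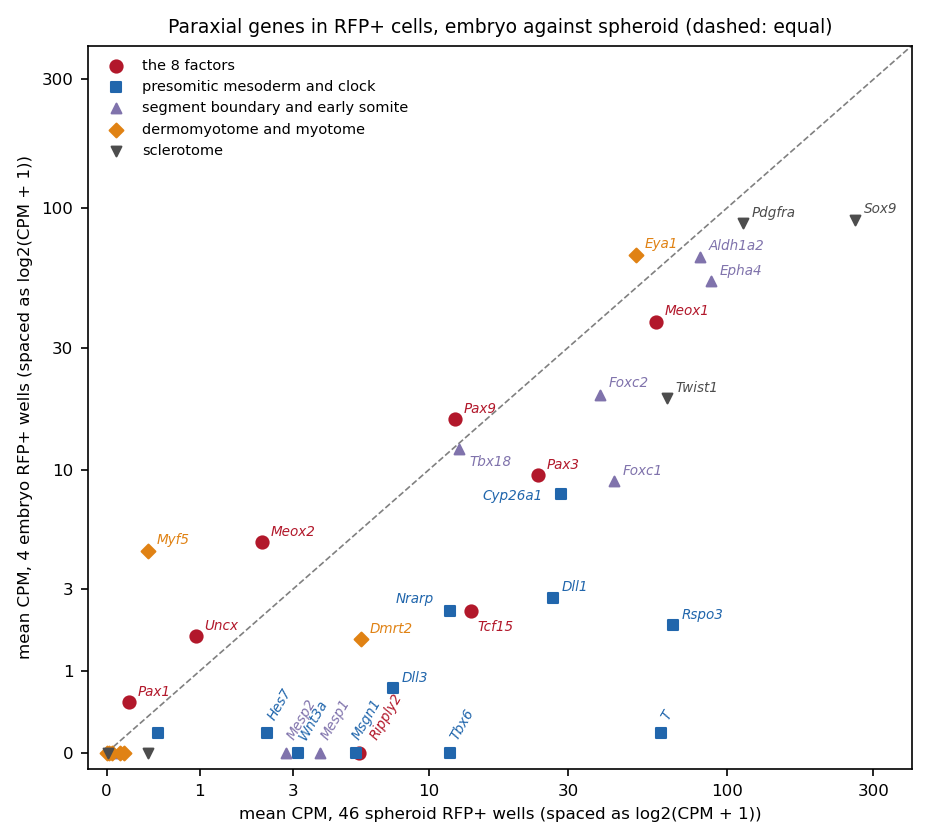
Mean CPM of the 8 factors and of 32 other paraxial genes in spheroid RFP+ wells (x axis, n = 46) and embryo RFP+ wells (y axis, n = 4), both spaced as log2(CPM + 1), with equality as a dashed line. Presomitic genes and Ripply2 fall far under the line, while Meox1, Pax9 and the boundary genes Epha4 and Aldh1a2 lie near it.

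Levels of markers of later somite fates differed widely between genes. The 9 genes of the myotome list summed to 58.7 to 126 CPM in embryo RFP+ wells and 39.5 to 154 CPM in spheroid RFP+ wells. Of these, Eya1 was over the per-well cut of the read filter in all 4 embryo and all 46 spheroid RFP+ wells. The myogenic regulators Myod1, Myog and Myf6, and Pax7 and Lbx1 of muscle precursors, had no read in embryo RFP+ wells and averaged at most 0.139 CPM in spheroid RFP+ wells. Myf5, also a myogenic regulator, was read in 3 of 4 embryo RFP+ wells, up to 9.84 CPM, and in 9 of 46 spheroid RFP+ wells. Of the sclerotome list, Nkx3-2 and Scx had no read in embryo RFP+ wells and averaged at most 0.358 CPM in spheroid RFP+ wells. Sox9, a cartilage and endoderm regulator, averaged 262 CPM in spheroid and 90.6 CPM in embryo RFP+ cells. Sox9, Twist1 and Pdgfra were over the same per-well cut in all 4 embryo and all 46 spheroid RFP+ wells. All of them were higher in RFP+ than GFP+ spheroid wells. In embryos edgeR called 0 of the 3 sclerotome genes tested, with 1, Pdgfra, at an unadjusted p under 0.05 (raw p = 0.0243, lower in RFP+ cells), while DESeq2 called 1.

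Because Pax1, Pax3 and Pax9 also serve endoderm or neural cells, markers of those tissues were read in the same wells. In embryo RFP+ cells 9 of 11 endoderm genes had reads, with Shh and Nkx2-1 at 0, and their summed level was 27.9 to 764 CPM. Embryo GFP+ wells held 1 of 11 and 0 to 16.8 CPM. By well, endoderm sums were 764, 332, 567 and 27.9 CPM in F12, G11, G12 and H11, where Pax9 was 8.74, 15.5, 32.9 and 6.45 CPM. Ripply3, a partner of Tbx1 in the pharynx, averaged 56.2 CPM in embryo RFP+ wells and 1.74 CPM in spheroid RFP+ wells. In spheroids the endoderm sum was 51.6 to 273 CPM in RFP+ wells, with Nkx2-1 at 0, and 269 to 691 CPM in GFP+ wells. The sum of the pluripotency genes was also higher in those GFP+ wells, with a median of 176 CPM against 44.2 CPM in RFP+ wells. Which cells the reads of the endoderm list came from was not tested. The genes of the list did not share 1 direction. Of 5 tested, Epcam, Cdh1, Cldn6 and Hhex were called lower in RFP+ cells (40.1% of all genes tested). Foxa2 was called higher (37.8% of all), as was Pax9. The part of endoderm in the Pax9 and Pax1 reads was not tested in either source.

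Neural and neural crest genes were read at 75.0 to 126 CPM in sum in embryo RFP+ wells, with 7 of 8 detected and Foxd3 at 0, and at 0 to 129 CPM in embryo GFP+ wells, with 2 of 8 detected. Snai2, which is also expressed in mesenchyme, made up most of these sums, with means of 67.6 CPM in embryo RFP+ and 48.7 CPM in embryo GFP+ wells. Without it the other 7 genes summed to 16.8, 22.5, 70.9 and 12.2 CPM in embryo RFP+ wells F12, G11, G12 and H11, where Pax3 was 8.01, 0, 22.8 and 7.16 CPM, and to at most 7.54 CPM in embryo GFP+ wells. In spheroids all 8 genes were read in each population, with 0.738 to 47.7 CPM in RFP+ wells and 0 to 33.3 CPM in GFP+ wells without Snai2. Of 2 genes tested, 1, Snai2, was lower in RFP+ cells (40.1% of all genes tested). Sox10, which defines migrating neural crest, was read in 3 of 4 embryo RFP+ wells (mean 1.81 CPM) and averaged 0.104 CPM in spheroid RFP+ wells. Tfap2a, a neural crest and surface ectoderm factor, was likewise read in 3 of 4 embryo RFP+ wells (3.66 CPM) and averaged 0.450 CPM in spheroid RFP+ wells. Their part in the embryo Pax3 reads was not tested.

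Markers of the remaining tissues gave the setting of these wells. Cardiomyocyte genes summed to 1168 to 2149 CPM in embryo RFP+ wells and 17486 to 50777 CPM in embryo GFP+ wells, and to 12.6 to 128 CPM in spheroid RFP+ wells and 0 to 1247 CPM in spheroid GFP+ wells. Pharyngeal and SHF mesoderm genes summed to 176 to 371 CPM in embryo RFP+ wells and 53.2 to 172 CPM in spheroid RFP+ wells, and Six2 was higher in RFP+ than GFP+ cells in both sources. Lateral plate and intermediate mesoderm genes summed to 9.29 to 75.9 CPM in embryo and 3.75 to 56.3 CPM in spheroid RFP+ wells. Endothelial genes reached 355 and 143 CPM, and blood genes 779 CPM in embryo well F12 and at most 1.41 CPM in the other embryo RFP+ wells. Pluripotency genes summed to 7.39 to 556 CPM in spheroid RFP+ wells and 70.4 to 1666 CPM in spheroid GFP+ wells, and to 0 to 78.0 CPM in embryo RFP+ wells, where Pou5f1 had no read. In spheroids 5 of 6 tested were lower in RFP+ cells (40.1% of all genes tested). Of these 6, 5 would have passed the read filter on GFP+ wells alone and 1 on RFP+ wells alone, so nothing is read from that count. The part of these tissues in the levels of the 8 factors was not tested.

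Within the spheroid RFP+ wells, the widespread factors varied moderately and the sporadic ones widely. The coefficient of variation over 46 wells was 0.374 for Tcf15, 0.378 for Pax9, 0.383 for Meox1 and 0.429 for Pax3, and 1.63 for Ripply2, 2.00 for Meox2 and 1.09 for Uncx. Near-identical wells gave a measure of how repeatable these levels were. The median gap between the 2 wells of a pair was 0.25 for Meox1, 0.11 for Pax3 and 0.21 for Pax9 on the log2(CPM + 1) scale, against 0.54, 0.58 and 0.52 between all other pairs of wells. For Tcf15 the gaps were 0.40 and 0.52, and for Ripply2 0.38 and 1.5.

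**Figure D5:**
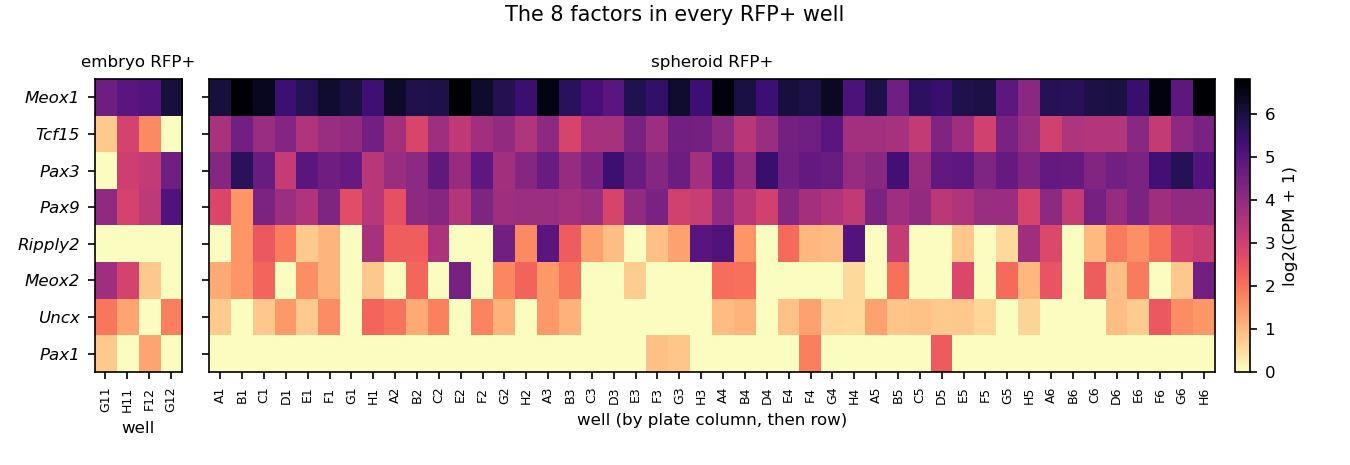
Level of each factor (rows) in every embryo RFP+ well and every spheroid RFP+ well (columns, by plate column and row), as log2(CPM + 1) in colour. Meox1, Tcf15, Pax3 and Pax9 are present in all 46 spheroid wells, and high Ripply2 is limited to a few wells, with pairs A3 with A4 and H3 with H4 alike.

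The 8 factors did not rise and fall together from well to well. Over the 39 spheroid RFP+ libraries with near-identical wells summed, Spearman's rho between the 28 pairs of factors ran from -0.32 to 0.37 (median 0.05). In the 37 spheroid GFP+ wells without C9 it ran from -0.38 to 0.38 (median 0.02). Meox1 and Tbx6 gave a rho of -0.47, Ripply2 and Mesp1 0.28, and Tbx1 with Tcf15 0.35. Total counts gave a rho of at most 0.24 with any factor in RFP+ libraries. These values describe wells that share a plate and a sort, and sparse counts weaken them.

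Genes with the pattern closest to each factor over these 39 libraries were searched among 12551 genes read in at least 50% of them. Glrx came first for Meox1 (rho 0.68), Lpar3 for Pax3 (0.61), Gpbp1 for Pax9 (0.60), Heatr6 for Uncx (0.59), Itfg2 for Ripply2 (0.57) and Cradd for Meox2 (0.54). For Tcf15, Dynlrb1 (0.64) and the ribosomal protein gene Rps26 (0.62) were among the 3 closest. The 99th percentile of rho over the genes searched was 0.37 to 0.44. No other paraxial factor was among the 3 closest genes of any of the 7 factors searched.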

How the data were processed

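RNA from 93 wells of 10 sorted cells was amplified from poly(A) and sequenced. The study's methods and the submitters' processing notes name Trimmomatic 0.36 for trimming (in the methods, at a quality of at least 35 and a length of at least 36), HISAT2 2.0.4 for alignment to mm10 and featureCounts 1.5.2 for counting. The deposited values are whole read counts for 24514 symbols, without normalization, and 2645 symbols had no count. The annotation and strand setting used for counting are not given in the sources used here. Reads carry no molecular identifiers, so intervals cover counting error only.

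Groups were taken from the sample labels. Counts were tested with edgeR 4.0.16 in R 4.3.3 (TMM, filterByExpr with minimum count 10, minimum total 15 and proportion 0.7, quasi-likelihood F-test), on all genes and separately for each of 4 comparisons, with Benjamini-Hochberg adjustment and calls under 0.1. CPM use TMM over all libraries. Log2 CPM with a prior count of 2 were compared by two-sided permutation tests (SciPy 1.17.1), exact where a group had under 10 wells and with 100000 resamples otherwise. Fold changes against a group at 0 are lower bounds at a floor of 3 counts per library, averaged over the group, and cover counting error only. The difference of fold changes between sources was tested over their joint standard error. Scripts were tested on simulated counts. Gene models and lengths came from GENCODE M21 (GRCm38), and promoter windows from RefSeq (GRCm38.p6).

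The 8 factors and the 12 other gene lists were chosen with earlier results of these data known. All 8 factors are named, and of other genes those that a sentence on the factors needs, the reporter genes and, in each list, the called gene with the highest mean CPM in RFP+ wells. Values of 3 genes that these rules would name are not reported here. Alternatives were DESeq2 1.42.0, its size factors, total counts, no filter, a threshold of 0.05, near-identical wells summed, plate row as a covariate, no well C9, each embryo well left out, a prior count of 0.5, a minimum of 5 reads and thinning to 400000 reads.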

Additional observations from a re-analysis of the deposited data

How the results depend on the processing

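Calls of the factors depended mainly on which genes of low counts were tested. In embryos 1 factor was called, and DESeq2 called 3, no filter 4, and leaving out an embryo well 1 to 2, the higher count without RFP+ well H11. In spheroids 4 were called, and DESeq2 and no filter gave 7 each. Between GFP+ sources 1 was called, DESeq2 gave 2, no filter 5, and leaving out spheroid well C9 gave 2, as did leaving out any embryo GFP+ well (2 to 2). The embryo permutation tests passed for 2 factors, Meox1 and Pax9, which had reads in all 4 RFP+ wells. When a well was left out the tests passed for 2 to 4 factors. The higher count came without G12, the only RFP+ well with no read of Meox2 or Tcf15. With GFP+ wells at 0, these p-values follow from the number of RFP+ wells with a read. For comparison, 11.8% of genes with a read in embryos had no overlap in that direction. The median of 6 factors per spheroid RFP+ well moved to 4.5 with at least 5 reads. The Pax9 difference between RFP+ sources ran from -0.28 to 0.62 over leaving out each embryo well, reversed without G12. All other values of the factors kept their direction, and 7 settings lost the call of Meox1 between RFP+ sources. Over all genes, embryo calls rose from 858 to 1936 with DESeq2 and 2000 with no filter, and spheroid calls from 7747 to 13109 with no filter. Between GFP+ sources, 2326 genes were higher and 5710 lower in embryos with TMM, against 3473 and 4687 with DESeq2 size factors. No paired analysis was possible because the labels give only well positions and no replicate numbers. The embryo groups had 4 and 5 wells, and 3 counts stood for 1.30 to 3.72 CPM per GFP+ well. At this size and depth, differences of Tcf15, Pax3, Meox2, Uncx and Pax1 were not detectable in embryos by the main tests. Of these, DESeq2 called Pax3.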
